A study of Mus musculus with 14 samples.

Results

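The response of WT mouse colon epithelium to 3 d of dextran sulfate sodium (DSS) in the drinking water was followed in 7 of the 14 RNA-seq libraries of the study: 3 libraries from DSS-treated WT mice and 4 from WT mice on water, chosen by their deposited labels. The other 7 libraries are labelled as Smad4 knockout and were not compared here. The mice were 8 to 14 wk old, on a C57/BL6-enriched background, and WT stands for animals without the epithelial deletion of Smad4. By the study's methods, mutants and controls were bred from Smad4 f/f mice with a tamoxifen-inducible Cre under the intestinal Villin promoter (Villin-CreERT2), and which of these alleles each WT mouse carried is not stated. Treated mice drank 2.5% DSS of 40 kD. Whether WT mice also received the tamoxifen that induces the deletion in the mutants is not given in the sources used here. The epithelium was shaken off the opened colon after 50 min in 5 mM EDTA, so surface and crypt cells are mixed and immune cells lodged between them can come along. The 7 libraries are separate samples by their labels, and p-values measure the spread between them. They are called water replicates 1 to 4 and DSS replicates 1 to 3. Replicates 1 and 2 of both groups carry names starting with D, and the other 3 libraries carry other prefixes whose meaning is not given, so each change was also read within the 4 D-named libraries, which are part of the 7.

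DSS is a sulfated polysaccharide that damages the colonic epithelium and lets luminal bacteria reach the tissue beneath. Colon epithelium is renewed from Wnt-dependent stem cells at the crypt base, whose progeny become absorptive colonocytes, goblet cells, enteroendocrine cells and tuft cells as they move to the surface. The same cells sense bacteria and cytokines such as interferon gamma and interleukin 22, and answer with antimicrobial lectins, acute phase proteins, chemokines and GTPases that attack intracellular pathogens.

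The deposited values are whole-number read counts per gene, between 12882827 and 26087231 per library. Values below are TMM-normalized counts at a common library size of 20914793, and fold changes are log2 differences of DSS against water. The 14407 genes that reached 10 counts in 3 or more libraries were tested, and their median log2 fold change was -0.0168. It was positive for 6982 of them and negative for 7425. The edgeR quasi-likelihood test called no gene at an adjusted p under 0.05 (0% higher, 0% lower). The smallest adjusted p, 0.0606, was shared by 33 genes, 958 genes were under 0.10 (3.46% of all genes tested were higher and 3.19% lower), and 3612 had an unadjusted p under 0.05 (11.8% higher, 13.3% lower). DESeq2 called 788 genes higher and 943 lower on the same counts, 5.47% and 6.55% of the genes tested. The groups did not overlap for 1905 genes that were higher (13.2%) and 1726 that were lower (12%) after DSS. Of the 1731 genes called by DESeq2, 1581 had no overlap between the groups. All 1731 had the same sign in the 4 D-named libraries, and 1192 had an unadjusted edgeR p under 0.05 there. These 4 libraries are among the 7 that gave the calls, so the shared sign is no separate check. With the added demand of a log2 fold change of 1 or more in size in both the 7 and the 4 D-named libraries, 148 genes that did not overlap were higher (1.03%) and 157 lower (1.09%). Below, a gene is said to be called where DESeq2 called it, since edgeR called none. In bulk epithelium, fewer cells of a kind and less RNA per cell cannot be told apart.

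Water replicates 3 and 4 stood apart from the other libraries. Transcripts of the mitochondrial genome took 30.6% and 32.8% of their counts, against 6.42% to 8.23% in water replicates 1 and 2 and 4.54% to 6.87% after DSS. The 13 protein-coding mitochondrial genes were therefore lower after DSS over the 7 libraries (median log2 fold change -2.14, 10 of 13 called lower), but their median was -0.308 in the D-named libraries, where DESeq2 called 0. Without water replicates 3 and 4, DESeq2 called 800 genes higher and 396 lower in all, and 875 of the 1731 calls remained with the same sign. Without replicate 1 or replicate 3 of the DSS group, DESeq2 called 237 and 255 genes. The 11 markers of colon epithelium summed to 17920 to 25420 CPM (counts scaled by library size) in every library, and the 13 fibroblast markers to 15.2 to 20.1 CPM. Smad4 transcripts were present in all 7 libraries, at 2405, 3149, 2670.4 and 2361 on water and 3366, 3609 and 3454 after DSS.

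Among genes of antibacterial and acute phase proteins, 8 of 28 tested were called higher after DSS, against 5.47% of all genes tested. Reg3b, Reg3g, Lbp and Lcn2 were among the 8. Reg3b and Reg3g encode C-type lectins that bind bacteria in the mucus. Reg3g had 10647, 7996, 4470.1 and 9194 normalized counts in the 4 water libraries and 36053, 32850 and 11893 in the 3 DSS libraries. DSS replicates 1 and 2 lay far above the water range, and DSS replicate 3 just above it (log2 fold change 1.74 ± 0.38 SE, adjusted p = 0.085 by edgeR and 0.00025 by DESeq2). Reg3b had 27819, 23750, 10485 and 23168 on water and 108460, 81471 and 28629 after DSS, and DSS replicate 3 was again just above the water range (log2 fold change 1.77, DESeq2 adjusted p = 0.00084). Lbp, the plasma protein that carries bacterial lipopolysaccharide to its receptor, lies at chr2:158132229-158158588 of mm9 and had 256, 398, 191 and 449.6 normalized counts in the 4 water libraries and 1563, 1772 and 1137 in the 3 DSS libraries. The lowest DSS library was 1137 against a highest water library of 449.6, and no overlap was a condition for selecting Lbp (log2 fold change 2.21 ± 0.28 SE, adjusted p = 0.061 by edgeR and 4.9e-10 by DESeq2). Its receptor subunit Tlr4 was at 240.1, 296, 215 and 194 on water and 494, 403 and 378 after DSS (log2 fold change 0.84, DESeq2 adjusted p = 0.0032).

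Lcn2, whose product takes iron-loaded siderophores from bacteria, had 94.4, 168, 123 and 156 on water and 311, 466 and 426 after DSS (log2 fold change 1.57 ± 0.24 SE, adjusted p = 0.061 by edgeR and 1.3e-06 by DESeq2). The complement component C3 was at 468, 926, 876 and 494 on water and 1271, 1718 and 2738 after DSS (log2 fold change 1.46, DESeq2 adjusted p = 0.00058). Nos2, the inducible nitric oxide synthase, had a mean of 1019 ± 430.0 (SD, n = 4) on water and 2429 ± 541 (SD, n = 3) after DSS, with water replicate 4 the lowest at 396 (log2 fold change 1.25, DESeq2 adjusted p = 0.0081). Duox2, which makes hydrogen peroxide at the luminal surface, was at 8095, 6581, 7766 and 5508 on water and 10828, 9381 and 11167 after DSS (log2 fold change 0.58, DESeq2 adjusted p = 0.011). Over all genes tested, 5.47% were called higher and 6.55% lower, and 13.2% were higher without overlap. Of 28 tested members of the antimicrobial and acute phase list, 8 were called higher and 1 lower, and 9 were higher without overlap. The list's median log2 fold change was 0.285 (18 positive, 10 negative), and 0.0834 in the D-named libraries (17 positive, 11 negative), where 6 were called higher and 2 lower. Reg4, a lectin-like protein of secretory cells, was the member called lower: it had 6576, 6870.5, 8789.9 and 7488 on water and 2185, 1916 and 3878 after DSS (log2 fold change -1.48 ± 0.24 SE, adjusted p = 0.061 by edgeR and 9.4e-07 by DESeq2). Within the D-named libraries alone, edgeR called 3 genes, Lbp higher (0.00719% of 13916 genes tested) and Reg4 and Rps2 lower (0.0144%). Rps2, a ribosomal protein gene with many near-identical copies, varied from 401 to 16574 with high and low libraries in both groups.

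**Figure D1:**
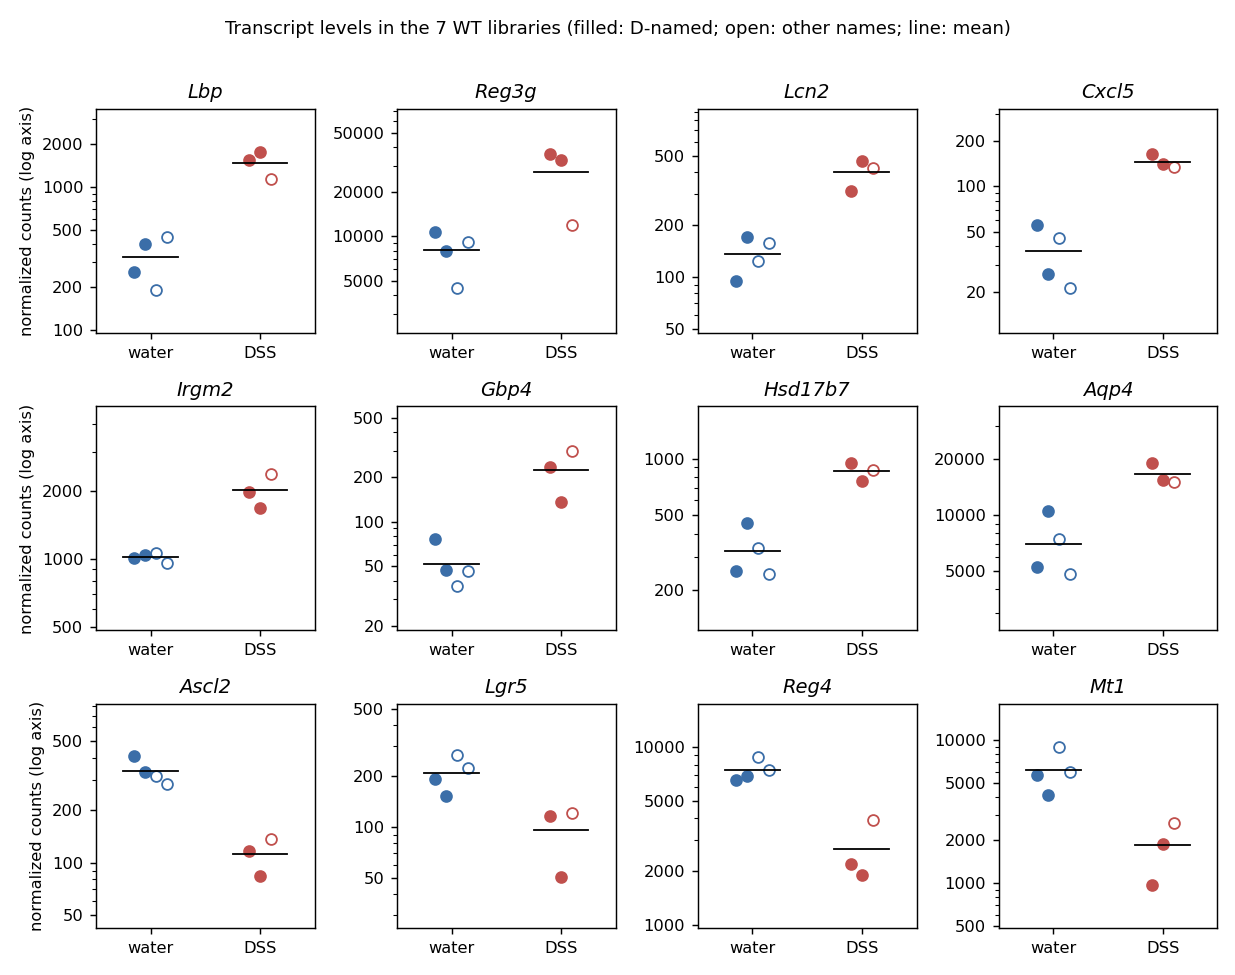
Normalized counts (log axis) of 12 genes in each of the 4 water and 3 DSS libraries. Filled points are D-named libraries, open points the others, and lines the group means. The groups do not overlap for any of the 12: Lbp, Reg3g, Lcn2, Cxcl5, Irgm2, Gbp4, Hsd17b7 and Aqp4 are higher and Ascl2, Lgr5, Reg4 and Mt1 lower after DSS. Lbp, Lcn2, Irgm2, Hsd17b7, Ascl2 and Reg4 were selected by a rule that requires no overlap, so for them this was fixed by the choice. Of all genes tested, 13.2% were higher and 12% lower without overlap.

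Chemokines that draw neutrophils were low but separated. Cxcl5 had 55.6, 26.3, 45.2 and 21.3 normalized counts in the 4 water libraries and 163, 141 and 133 in the 3 DSS libraries (log2 fold change 1.94, DESeq2 adjusted p = 2.0e-05). Cxcl1 was near the detection filter, at 15.4, 12.3, 11.3 and 12.8 on water and 49.99, 33.5 and 35.0 after DSS (log2 fold change 1.59, DESeq2 adjusted p = 0.012). Cxcl9, an interferon gamma target that attracts T cells, had 84.2, 44.7, 75.9 and 66.1 on water and 134, 118 and 187 after DSS (log2 fold change 1.11, DESeq2 adjusted p = 0.01). These were the 3 members called among the 22 tested cytokines and chemokines, where 5.47% of all genes tested were called higher. Cxcl10 overlapped between the groups, with 63.7, 19.3, 69.5 and 38.4 on water and 78.2, 80.5 and 58.3 after DSS. On the receiving side, the receptor subunits Il4ra (log2 fold change 0.68, DESeq2 adjusted p = 0.0033), Il6st (log2 fold change 0.82, DESeq2 adjusted p = 0.0033) and Il22ra1 (log2 fold change 0.83, DESeq2 adjusted p = 0.037) were called higher, among 5 of 19 tested receptor and STAT3 genes. Stat3 itself was higher without overlap but not called (DESeq2 adjusted p = 0.06).

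Interferon-inducible GTPases had the highest median of the lists of epithelial functions. These proteins of the Gbp and Irg families are known to be induced by interferon gamma and to act on vacuoles that hold pathogens. Irgm2, at chr11:58028530-58036282 of mm9, had 1013, 1047, 1063 and 965 normalized counts in the 4 water libraries and 1985, 1687 and 2382 in the 3 DSS libraries. The water libraries lay close together. Every DSS library was above them, which was a condition for selecting Irgm2 (log2 fold change 0.98 ± 0.13 SE, adjusted p = 0.061 by edgeR and 2.2e-07 by DESeq2). Gbp4 was scarcer, at 76.9, 47.4, 37.2 and 46.9 on water and 234, 136 and 297 after DSS (log2 fold change 2.07 ± 0.33 SE, adjusted p = 0.061 by edgeR and 3.9e-06 by DESeq2). Iigp1 had 787, 417, 952 and 388 on water and 2139.5, 1181 and 1461 after DSS (log2 fold change 1.32, DESeq2 adjusted p = 0.0033). Tgtp1 had 226, 160.5, 339 and 164 on water and 429, 393 and 767 after DSS (log2 fold change 1.25, DESeq2 adjusted p = 0.0052). Gbp7 and Igtp were also called higher (log2 fold change 0.73, DESeq2 adjusted p = 0.0093, and log2 fold change 0.78, DESeq2 adjusted p = 0.0079). Gbp2 and Gbp5 were called too, although their groups overlapped: Gbp2 had 942, 1011, 1645 and 490.1 on water and 1922, 1443 and 2646 after DSS, and Gbp5 had 52.7, 49.98, 92.1 and 44.7 on water and 129, 86.8 and 141 after DSS. Over all genes tested, 5.47% were called higher and 13.2% were higher without overlap. Of 18 listed GTPase genes 17 passed the filter, 16 had a positive log2 fold change, 8 were called higher and 0 lower, and 6 were higher without overlap. The median log2 fold change was 0.778 over 7 libraries, 0.753 in the D-named libraries and 0.971 without water replicates 3 and 4. Members of these families share long stretches of sequence, so reads may have been split among them.

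The promoters of 4 of these genes are shown because 8 of the 17 tested GTPases were called higher and a short element recurs in these windows. Each window runs from 250 bases before to 50 bases after the RefSeq transcript start, in the GRCm38.p6 build and on the plus strand, and capitals mark matches to the core of the interferon-stimulated response element (ISRE), searched as GAAANNGAA on both strands.
Irgm2, chr11:58214727-58215026: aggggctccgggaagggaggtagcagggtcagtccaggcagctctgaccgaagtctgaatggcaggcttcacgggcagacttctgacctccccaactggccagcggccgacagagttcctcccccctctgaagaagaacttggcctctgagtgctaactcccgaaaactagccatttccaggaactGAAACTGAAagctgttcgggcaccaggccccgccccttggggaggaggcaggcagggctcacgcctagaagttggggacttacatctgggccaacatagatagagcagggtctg
Igtp, chr11:58199306-58199605: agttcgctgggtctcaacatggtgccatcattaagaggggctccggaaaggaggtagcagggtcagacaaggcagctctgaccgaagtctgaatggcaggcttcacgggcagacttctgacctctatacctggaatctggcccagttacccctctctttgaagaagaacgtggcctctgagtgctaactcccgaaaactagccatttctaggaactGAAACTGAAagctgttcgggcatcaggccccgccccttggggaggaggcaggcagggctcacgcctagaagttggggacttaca
Gbp2, chr3:142620413-142620712: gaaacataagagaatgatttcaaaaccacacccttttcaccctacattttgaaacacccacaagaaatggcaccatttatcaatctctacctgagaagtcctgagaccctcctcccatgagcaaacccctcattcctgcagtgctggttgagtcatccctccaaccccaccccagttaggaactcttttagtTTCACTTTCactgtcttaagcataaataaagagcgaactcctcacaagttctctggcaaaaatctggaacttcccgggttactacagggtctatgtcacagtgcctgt
Gbp7, chr3:142530086-142530385: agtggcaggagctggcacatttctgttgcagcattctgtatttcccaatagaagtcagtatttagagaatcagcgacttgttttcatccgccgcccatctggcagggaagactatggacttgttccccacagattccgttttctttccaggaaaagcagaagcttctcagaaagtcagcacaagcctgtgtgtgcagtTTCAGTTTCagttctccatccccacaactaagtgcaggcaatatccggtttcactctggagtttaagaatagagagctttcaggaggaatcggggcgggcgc
The match begins 64 bases before the start in Irgm2, 34 in Igtp, 58 in Gbp2 and 52 in Gbp7. Of 11 listed GTPase genes with a window in the table, 10 (90.9%) held the core, against 9.76% of all 27025 genes. All 4 genes shown were called higher, but Irgm1 and Gbp3, which were not called, also held it. The gamma-activated site TTCNNNGAA, which can overlap the ISRE core, was in 6 of the 11 (54.5%), against 9.55% of all genes. Among antiviral effectors, 16 of 26 genes (61.5%) held the ISRE core, and the median log2 fold change of that list was 0.0074. A match is a stretch of letters and no measure of binding, and its link to the changes was not tested.

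The rest of the interferon response was uneven. Ciita, the switch of MHC class II genes, had 340.4, 278, 323 and 145 normalized counts in the 4 water libraries and 615, 516 and 1067 in the 3 DSS libraries (log2 fold change 1.42, DESeq2 adjusted p = 0.0012). Socs1, the feedback inhibitor of Janus kinases, had 305, 192, 191 and 194 on water and 363, 522 and 397 after DSS (log2 fold change 0.94, DESeq2 adjusted p = 0.0044). Of 23 tested interferon signalling genes, 6 were called higher and 1 lower (median 0.134), where 5.47% and 6.55% of all genes tested were. Ido1, the interferon-induced enzyme that degrades tryptophan, was called higher at 307, 109, 215 and 241 on water and 769, 519 and 1084 after DSS (log2 fold change 1.86, DESeq2 adjusted p = 2.6e-05). AW112010, an interferon-inducible transcript, was at 2814, 2935, 2924 and 2354 on water and 4489, 5325 and 6106 after DSS (log2 fold change 0.94, DESeq2 adjusted p = 8.7e-07).

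The 36 antiviral effectors had a median log2 fold change of 0.0074, below that of the GTPases. Of the 36, 6 were called higher and 1 lower, where 5.47% and 6.55% of all genes tested were. Without overlap, 8 were higher and 0 lower, against 13.2% and 12% of all genes tested. Parp9, Samd9l, Dtx3l and Ifit2 were called higher without overlap (log2 fold changes 0.60, 0.67, 0.60 and 1.07). The nucleic acid sensor Zbp1 was called higher at 1488, 1553, 1313 and 1568 on water and 2229, 1909.6 and 1972 after DSS (log2 fold change 0.46, DESeq2 adjusted p = 0.0091). Ifit1, a binder of viral RNA caps, was the member called lower, at 795, 494, 922 and 1317 on water and 657, 242 and 365 after DSS (log2 fold change -1.06, DESeq2 adjusted p = 0.036). Isg15 had 908, 632, 535 and 1085 on water and 612, 344 and 622 after DSS and was not called. For MHC class I presentation, 17 of 19 tested genes had a positive log2 fold change, 2 were called higher and the median was 0.264. In the D-named libraries the median was 0.11, with 12 positive and 7 negative, and DESeq2 called 0. Without water replicates 3 and 4 the median was 0.14. For MHC class II, 2 of 13 were called lower, and H2-Aa spread widely in both groups, at 9550.2, 2386, 6976 and 3399 on water and 4002, 7808 and 15784 after DSS, so no direction was seen.

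Where 5.47% of all genes tested were called higher after DSS, 13 of 24 tested genes of cholesterol synthesis and uptake were. These enzymes build cholesterol from acetyl-CoA under control of the transcription factor SREBP2. Hsd17b7, a late enzyme of the path, lies at chr1:171879666-171899372 of mm9 and had 254, 457, 334 and 245 normalized counts in the 4 water libraries and 944, 764 and 869 in the 3 DSS libraries. Every DSS library exceeded every water library, which was a condition for selecting Hsd17b7 (log2 fold change 1.41 ± 0.22 SE, adjusted p = 0.061 by edgeR and 2.6e-06 by DESeq2). Idi1, which isomerizes isopentenyl diphosphate, had 613, 759, 855 and 407 on water and 1529.6, 1352 and 1420.3 after DSS (log2 fold change 1.12, DESeq2 adjusted p = 0.00036).

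Further along the same path, Sqle, which epoxidizes squalene, had 2052, 3147, 2529.9 and 2011 on water and 4775, 4313 and 4928 after DSS (log2 fold change 0.94, DESeq2 adjusted p = 0.00011). Lss, which closes the sterol rings, had 964, 1150.5, 1304 and 1104 on water and 2399, 1866 and 1955 after DSS (log2 fold change 0.88, DESeq2 adjusted p = 2.8e-05). Cyp51, the lanosterol demethylase, had 2888, 3553, 3016 and 3484 on water and 5477, 5856 and 4568 after DSS (log2 fold change 0.71, DESeq2 adjusted p = 0.00024). Insig1, which holds SREBP in the endoplasmic reticulum, had 1021, 2077, 1310.2 and 1681 on water and 3986, 2223 and 2549.7 after DSS (log2 fold change 0.94, DESeq2 adjusted p = 0.013). Srebf2, which encodes SREBP2, was higher without overlap but not called (log2 fold change 0.32, DESeq2 adjusted p = 0.077). Over all genes tested, 5.47% were called higher and 13.2% were higher without overlap. Of 24 tested members, 22 had a positive log2 fold change, 13 were called higher and 0 lower, and 18 were higher without overlap. The median log2 fold change was 0.586 over 7 libraries, 0.59 in the D-named libraries and 0.567 without water replicates 3 and 4.

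**Figure D2:**
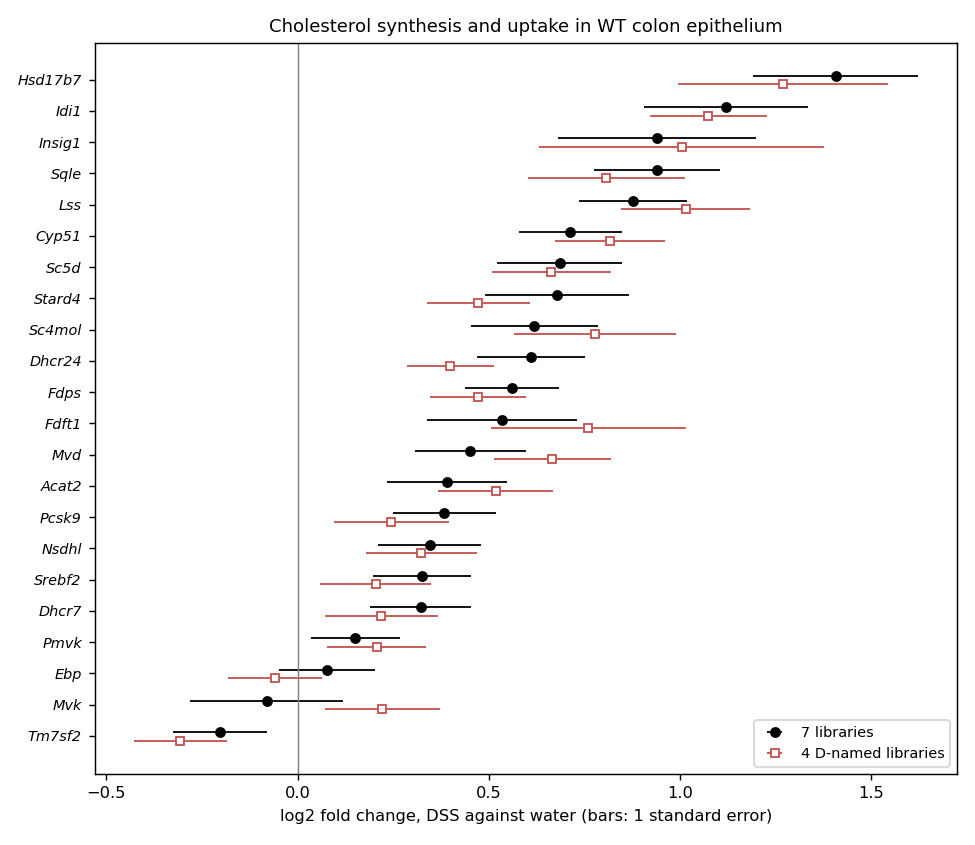
Log2 fold change of DSS against water for 22 of the 24 tested cholesterol genes, with bars of 1 standard error from edgeR. Black points are the 7 libraries and open squares the 4 D-named libraries. Points lie right of 0 for 20 of the 22 genes plotted in each of the fits, from Hsd17b7 at 1.41 down to Tm7sf2 below 0.

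Several endoplasmic reticulum chaperones were called higher, and the stress factor Ddit3 lower, over the 7 libraries. Hspa5, the main chaperone of the unfolded protein response, had 14202, 8910.2, 9233 and 8065 normalized counts in the 4 water libraries and 15671, 15168 and 14366 in the 3 DSS libraries. Water replicate 1 came close to the DSS libraries (log2 fold change 0.58, DESeq2 adjusted p = 0.039). Hsp90b1 had 8295, 7233, 7934 and 7443 on water and 10458, 10768 and 10274 after DSS (log2 fold change 0.44, DESeq2 adjusted p = 0.0013), and Canx, the lectin chaperone calnexin, had 7408, 6577, 5300.4 and 4679 on water and 9281, 8862 and 9641 after DSS (log2 fold change 0.63, DESeq2 adjusted p = 0.0095). Ddit3, which encodes the proapoptotic factor CHOP, had 327, 338, 649 and 893 on water and 165, 300.3 and 167 after DSS (log2 fold change -1.38, DESeq2 adjusted p = 0.0074). The 2 water libraries rich in mitochondrial transcripts held the highest Ddit3 values, and in the D-named libraries its log2 fold change was -0.51. Of all genes tested, 5.47% were called higher and 6.55% lower. For the 25 tested genes of this response, the counts were 9 higher and 1 lower (median 0.412, and 0.263 in the D-named libraries). Within the D-named libraries DESeq2 called 1 of them higher and 0 lower, and without water replicates 3 and 4 it called 4 and 0. Among 16 heat shock genes DESeq2 called 0, and 1 had an unadjusted edgeR p under 0.05.

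Of 21 tested genes of the crypt base and Wnt signalling, 6 were called lower after DSS, against 6.55% of all genes tested. Stem cell genes were among the 6. Ascl2, a transcription factor that sets stem cell identity, lies at chr7:150152727-150155169 of mm9 and had 409, 334, 317 and 283 normalized counts in the 4 water libraries and 117, 84.1 and 136 in the 3 DSS libraries. The highest DSS library, at 136, was below the lowest water library, at 283, and no overlap was a condition for selecting Ascl2 (log2 fold change -1.58 ± 0.22 SE, adjusted p = 0.061 by edgeR and 2.5e-08 by DESeq2). Lgr5, the receptor for R-spondins that marks these cells, had 193, 152, 267 and 224 on water and 115, 50.7 and 121 after DSS (log2 fold change -1.12 ± 0.33 SE, adjusted p = 0.1 by edgeR and 0.016 by DESeq2). Smoc2, a matrix protein of the stem cell signature, had 769, 893, 1252 and 897 on water and 582, 386 and 642 after DSS (log2 fold change -0.83, DESeq2 adjusted p = 0.01).

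Axin2, a direct Wnt target that feeds back on the pathway, overlapped by 1 library, with 1000.1, 949, 1019 and 622 on water and 574, 361 and 635 after DSS (log2 fold change -0.78, DESeq2 adjusted p = 0.022). Ephb3 had 1393, 1299, 1885 and 1351 on water and 903, 749.9 and 993 after DSS (log2 fold change -0.75, DESeq2 adjusted p = 0.0031), and Rgmb, a BMP coreceptor, had 2146, 1773, 2372 and 2374 on water and 1341, 1276 and 1371 after DSS (log2 fold change -0.70, DESeq2 adjusted p = 0.00026). Over all 14407 genes tested, 6.55% were called lower and 7425 had a negative log2 fold change. Of 21 tested crypt base and Wnt genes, 6 were called lower and 0 higher, and 16 had a negative log2 fold change. The list's median was -0.258 over the 7 libraries, -0.545 in the D-named libraries and -0.52 without water replicates 3 and 4. Cd44 and Sox9 overlapped between the groups and were not called (DESeq2 adjusted p = 0.17 and 0.72).

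**Figure D3:**
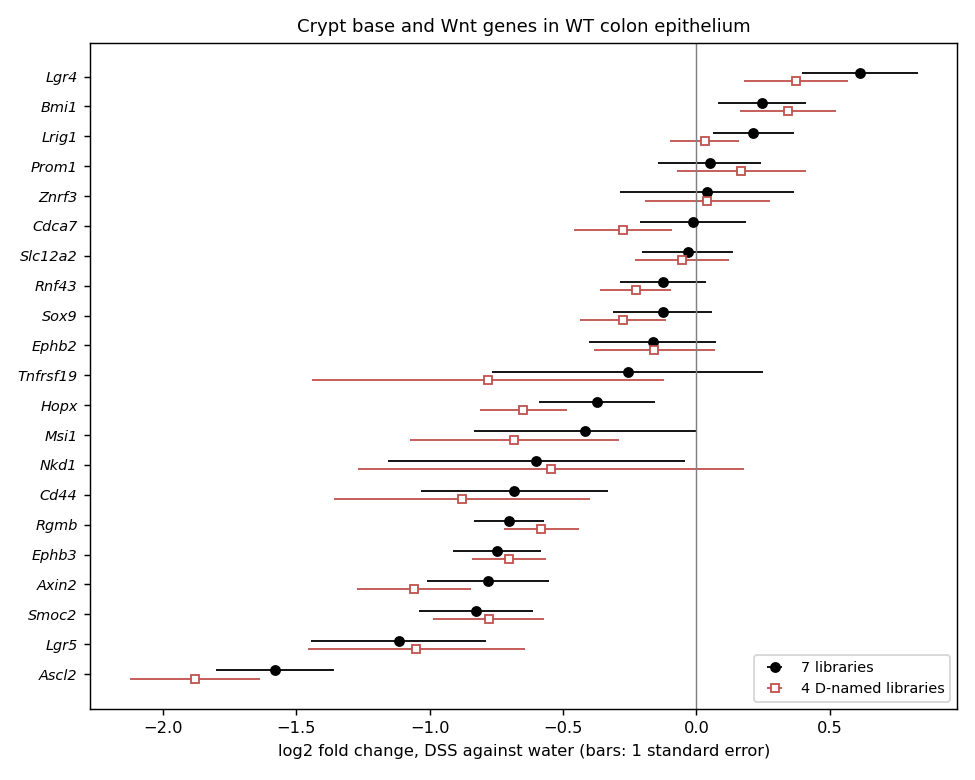
Log2 fold change of DSS against water for the 21 tested crypt base and Wnt genes, with bars of 1 standard error from edgeR. Black points are the 7 libraries and open squares the 4 D-named libraries. Ascl2 and Lgr5 lie furthest left at -1.58 and -1.12, and 16 of 21 black points are left of 0.

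Genes of the cell cycle were called no more often than all genes tested, of which DESeq2 called 5.47% higher and 6.55% lower. None of 38 tested DNA replication genes was called by DESeq2 or edgeR, none had an unadjusted edgeR p under 0.05, and their median log2 fold change was 0.0491. Of 36 mitosis genes, 2 were called lower, Ube2c and Cdca8, and 0 higher. The mitosis list had a median of -0.121 with 25 of 36 negative, and -0.164 with 29 of 36 negative in the D-named libraries. Mki67, the proliferation marker, ranged from 2519 to 6179 on water and from 3335 to 5509.7 after DSS. Cdkn1a, the p21 cell cycle inhibitor, had 3115, 4215, 3168 and 2659 on water and 2993, 2703 and 3424 after DSS, and the groups overlapped (log2 fold change -0.11 ± 0.17 SE, adjusted p = 0.7 by edgeR and 0.72 by DESeq2). Among the 21 tested cell cycle inhibitors and p53 targets DESeq2 called 0, and 1 had an unadjusted edgeR p under 0.05.

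Of 27 tested genes of BMP and TGF-beta signalling, 2 were called higher and 3 lower, where 5.47% and 6.55% of all genes tested were. Id3, a target of BMP signalling, had 2249, 2372, 1552 and 1440.4 normalized counts in the 4 water libraries and 1031, 796 and 1240.2 in the 3 DSS libraries (log2 fold change -0.90, DESeq2 adjusted p = 0.0045). Id1 was at 6999, 8990, 6575 and 5512 on water and 4974, 4282 and 5104 after DSS (log2 fold change -0.55, DESeq2 adjusted p = 0.028), and the inhibitory Smad6, another BMP target, at 558, 549.8, 405 and 526 on water and 395, 279 and 309 after DSS (log2 fold change -0.64, DESeq2 adjusted p = 0.017). These were the 3 members called lower among 27 tested, and 18 of the 27 had a positive log2 fold change. The 2 called higher were Smad4 (log2 fold change 0.39, DESeq2 adjusted p = 0.049) and Skil, a TGF-beta target that represses Smads, at 969, 901, 821 and 490.1 on water and 1341, 1125 and 1262 after DSS (log2 fold change 0.64, DESeq2 adjusted p = 0.044). Within the D-named libraries 4 were called lower and 0 higher, and with the trend with transcript length and GC content removed DESeq2 called 0 in either direction. Smad7, the inhibitor induced by TGF-beta, overlapped between the groups (log2 fold change -0.03, standard error 0.22).

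Most marker transcripts of differentiated cells were not called, and neither were most of all genes tested (5.47% called higher and 6.55% lower). Krt20, a keratin of mature colonocytes, had 12736, 12583, 16035 and 10341 on water and 14269, 12236 and 15956 after DSS, and the goblet cell mucin gene Muc2 had 278890, 121080, 115080 and 305350 on water and 198420, 149680 and 163220 after DSS, and the groups overlapped for both. Among 32 tested absorptive colonocyte genes 2 were called higher and 3 lower. Aqp4, a basolateral water channel, had 5265, 10542, 7462 and 4830.5 normalized counts in the 4 water libraries and 19032, 15451 and 15005 in the 3 DSS libraries (log2 fold change 1.23, DESeq2 adjusted p = 0.00042), whereas Aqp8, an apical water channel, had 4624, 6122, 6582 and 5003 on water and 3178, 3513 and 4336 after DSS (log2 fold change -0.60, DESeq2 adjusted p = 0.015). Best2, a bicarbonate and chloride channel counted in the same list, had 857, 1691, 973 and 1039.8 on water and 331, 520.1 and 807 after DSS (log2 fold change -1.05, DESeq2 adjusted p = 0.017). In which cell type Best2 changed was not tested. Of 20 goblet cell genes 1 was called higher and 2 lower, and of 14 tuft cell genes 1 was called lower. Among 20 enteroendocrine genes, 17 had a negative log2 fold change with a median of -0.411, and 1, the somatostatin gene Sst, was called lower. Negative log2 fold changes were found for 7425 of all 14407 genes tested. The hormone gene Pyy had 2118, 2250.1, 2194 and 2625 on water and 1225, 2193 and 1683 after DSS, and Chga had 1534, 1176, 784 and 1364 on water and 868, 767 and 978 after DSS.

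DESeq2 called 5.47% of all genes tested higher and 6.55% lower. Of 29 tested junction and adhesion genes, 5 were called higher and 1 lower over the 7 libraries (median 0.157, 21 positive). Within the D-named libraries 1 was called higher and 0 lower (median 0.0839, 17 positive and 12 negative), and likewise 1 and 0 with the trend with length and GC content removed. Tjp1, the tight junction scaffold ZO-1, had 1253, 1715, 1856 and 1221 on water and 2351, 2132 and 2537 after DSS (log2 fold change 0.63, DESeq2 adjusted p = 0.017), while Cldn3 was called lower (log2 fold change -0.48). Cdh1, the gene of E-cadherin, overlapped between the groups (DESeq2 adjusted p = 0.26). Itga2, an integrin subunit that binds collagen, was scarce on water and had 121, 94.7, 85.6 and 38.4 normalized counts in the 4 water libraries and 357, 288 and 371 in the 3 DSS libraries (log2 fold change 1.96 ± 0.31 SE, adjusted p = 0.061 by edgeR and 5.4e-07 by DESeq2). It was the 1 member called among 22 tested repair and YAP target genes. Sulf2, an enzyme that trims sulfates from heparan sulfate in the matrix, had 705, 748, 979 and 714 on water and 1815, 1609 and 1778 after DSS (log2 fold change 1.14 ± 0.14 SE, adjusted p = 0.061 by edgeR and 9.7e-09 by DESeq2).

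DESeq2 called 5.47% of all genes tested higher and 6.55% lower. Among cell death genes, 7 of 25 were called higher and 0 lower. They included the death ligand Tnfsf10, at 748, 808, 934 and 684 on water and 1449.7, 1290 and 2031 after DSS (log2 fold change 1.00, DESeq2 adjusted p = 0.00012), and Ripk1, Ripk3 and Mlkl, which act together in necroptosis. Mlkl had 575, 547, 641 and 639 on water and 913, 754 and 919 after DSS (log2 fold change 0.52, DESeq2 adjusted p = 0.0097). Xdh, which makes uric acid and reactive oxygen, was called higher at 1635, 1788, 1499 and 1447 on water and 2889, 2597 and 3456 after DSS (log2 fold change 0.90, DESeq2 adjusted p = 1.5e-06).

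The metal-binding metallothioneins were lower. Mt1 had 5712, 4128, 8955 and 5949 normalized counts in the 4 water libraries and 974, 1879 and 2657 in the 3 DSS libraries (log2 fold change -1.75, DESeq2 adjusted p = 3.1e-05). Mt2 had 2148, 1521, 4990.3 and 1276 on water and 195, 484 and 1066 after DSS (log2 fold change -2.09, DESeq2 adjusted p = 0.044). Both were among 5 of 29 oxidative defence genes called lower, against 2 called higher, where 6.55% and 5.47% of all genes tested were. Of the 2 called higher, Nox1 had 1510.4, 1714, 1475 and 682 on water and 2758, 1856 and 3309 after DSS (log2 fold change 0.97, DESeq2 adjusted p = 0.02). Xenobiotic enzymes leaned downward, with 23 of 31 negative and 4 called lower, where 7425 of all 14407 genes tested were negative and 6.55% called lower. Gstm1, a glutathione transferase, had 5560, 6158, 6271 and 8472 normalized counts in the 4 water libraries and 3051, 3571 and 2749 in the 3 DSS libraries (log2 fold change -1.08 ± 0.17 SE, adjusted p = 0.061 by edgeR and 1.5e-06 by DESeq2). Nuclear genes of oxidative phosphorylation had 5 of 40 called lower and 0 higher, Cox4i1 and Atp5d among them.

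The immunoglobulin transcripts Igkc and Igj, products of plasma cells, were lower. Igkc had 499, 407, 435 and 842 normalized counts in the 4 water libraries and 74.5, 149 and 86.7 in the 3 DSS libraries (log2 fold change -2.39 ± 0.33 SE, adjusted p = 0.061 by edgeR and 1.0e-09 by DESeq2). Igj, the joining chain, had 105, 87.7, 77.5 and 173 on water and 21.8, 22.6 and 26.7 after DSS (log2 fold change -2.21 ± 0.36 SE, adjusted p = 0.061 by edgeR and 1.6e-06 by DESeq2). The summed level of the 8 measured B and plasma cell markers, to which Igj contributed more than any other member in every library, was 5.12 to 11.5 CPM on water and 1.83 to 2.07 after DSS. Of the 8, 3 passed the filter, and 1 of these had a positive log2 fold change in the D-named libraries. Cd79a and Tnfrsf17 had at most 11 counts in any library. The part of plasma cells that come along with the epithelium was not tested. Summed markers of macrophages and dendritic cells were 100.4 to 188.7 CPM on water and 177.1 to 209.3 after DSS, and those of T and NK cells were 26.7 to 58.6 and 34.3 to 64.0, which overlapped. Cd14 made up most of the macrophage and dendritic cell sum in every library. It had 2382, 3589, 1720 and 2331 normalized counts on water and 4059, 3499 and 3172 after DSS, and was not called. Of 13 tested members of that list, 10 had a positive log2 fold change over the 7 libraries and 6 in the D-named libraries. Of 12 neutrophil markers 3 passed the filter, and Mpo, Elane and Retnlg had at most 1 count in any library. Of the 3 tested, Ly6g had 1244, 1425, 1094 and 1227 on water and 772, 1450 and 1044 after DSS and was not called (log2 fold change -0.20, DESeq2 adjusted p = 0.59). Ltf, which encodes the iron-binding lactoferrin, was the 1 called higher among the 3 tested, at 67.4, 155, 111 and 85.2 on water and 157, 441 and 503 after DSS (log2 fold change 1.80, DESeq2 adjusted p = 0.0011). Ttr, a thyroid hormone carrier of endocrine cells, was called lower at 571, 524, 517 and 501 on water and 36.4, 166 and 108 after DSS (log2 fold change -2.36, DESeq2 adjusted p = 3.9e-07).

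Beside these lists stand named genes with no list of their own. Higher were Ralgapa2, a GTPase-activating protein subunit (log2 fold change 0.85 ± 0.13 SE, adjusted p = 0.061 by edgeR and 1.6e-06 by DESeq2), and Tsnax, a partner of the RNA-binding protein translin, at 24.2, 15.8, 21.0 and 57.5 on water and 137, 199 and 240.1 after DSS. The predicted gene Gm9770 had 58.6, 91.2, 56.5 and 81.0 on water and 459, 205 and 323 after DSS (log2 fold change 2.19, DESeq2 adjusted p = 2.5e-08). Lower were Smpx at 144, 115, 153 and 164 on water and 37.3, 33.5 and 47.5 after DSS, Atoh8, a helix-loop-helix factor, at 136, 134, 176 and 211 on water and 32.7, 41.6 and 60.01 after DSS, and Sprr2a2, a cornified envelope gene with near-identical copies, at 7229, 10496, 6937 and 8849 on water and 3425, 2298 and 3909 after DSS. Also lower were H2afv, a histone variant gene (log2 fold change -0.87, DESeq2 adjusted p = 1.3e-06), Bcl7c (log2 fold change -1.07, DESeq2 adjusted p = 3.6e-06), Pdzd7 (log2 fold change -1.33, DESeq2 adjusted p = 1.9e-06) and 1190002H23Rik (log2 fold change -1.78, DESeq2 adjusted p = 2.7e-07). These named genes came from a rule that requires no overlap between the groups, so for them this was fixed by the choice.

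Medians were also read under other settings. Those of the interferon GTPases and of cholesterol synthesis lay close together for the 7 libraries, for the D-named libraries and after removal of the trend with transcript length. Without water replicates 3 and 4, DESeq2 called 14 cholesterol genes, 10 GTPases and 10 cell death genes higher, 5 antimicrobial genes higher and 2 lower, and 5 crypt base, 5 xenobiotic and 5 nuclear oxidative phosphorylation genes lower. Within the D-named libraries it called 11 cholesterol genes, 5 GTPases and 2 cell death genes higher, and 5 crypt base, 3 xenobiotic and 0 nuclear oxidative phosphorylation genes lower. Of all genes tested, DESeq2 called 800 higher and 396 lower of 14219 without water replicates 3 and 4. Within the D-named libraries, 262 were called higher and 136 lower of 13916. MHC class II genes had a median of 0.472 over 7 libraries and 0.00761 in the D-named libraries.

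**Figure D4:**
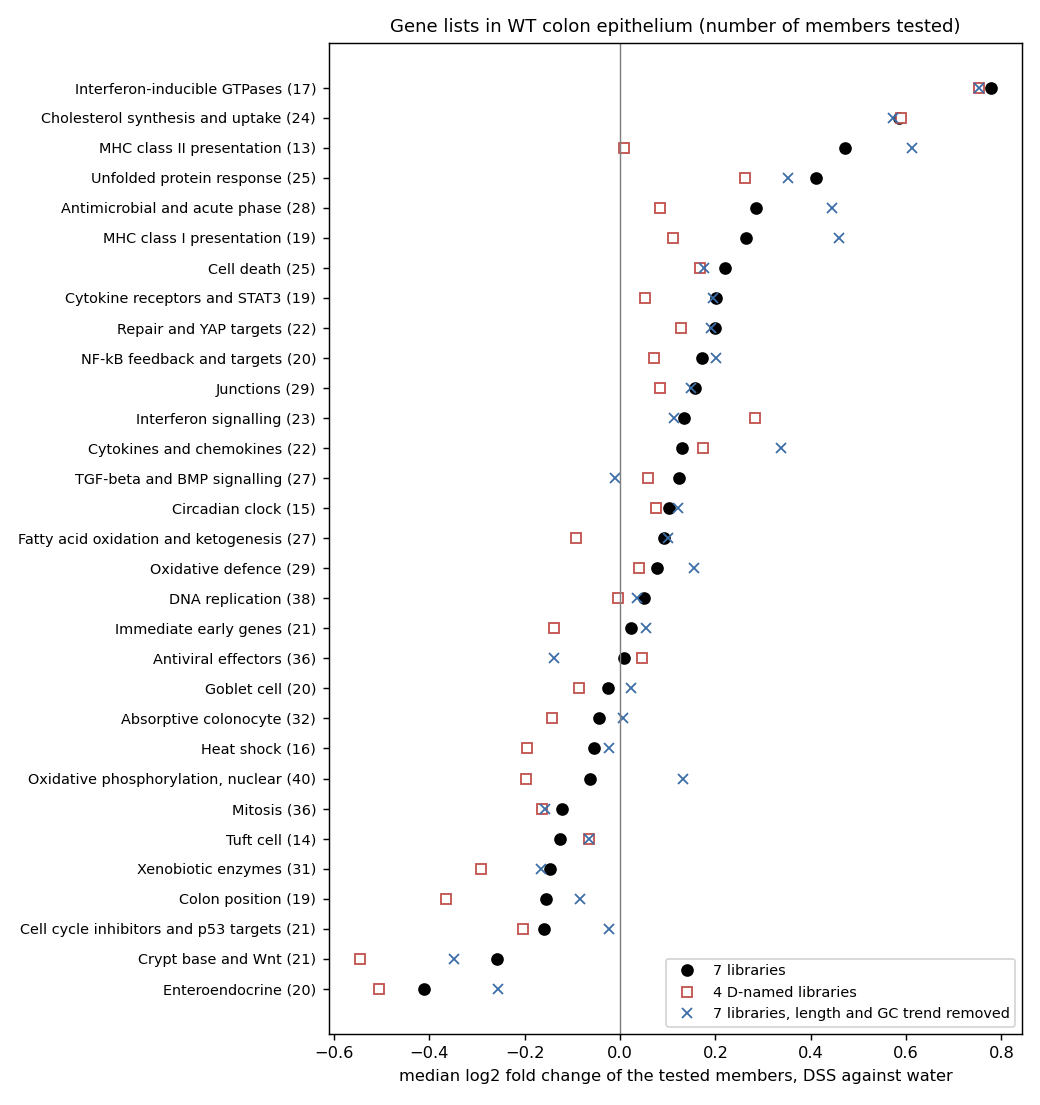
Median log2 fold change of DSS against water for the lists of pathways and epithelial cell types, without the mitochondrial genome and the marker lists of contaminating cells, with the number of members tested in brackets. Black points are the 7 libraries, open squares the 4 D-named libraries and crosses the 7 libraries after the trend with transcript length and GC content was removed. Interferon-inducible GTPases (0.778) and cholesterol synthesis (0.586) are furthest right among the lists plotted, and enteroendocrine (-0.411) and crypt base genes (-0.258) furthest left.

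Fold changes also ran with transcript length. The median log2 fold change ran from -0.285 in the tenth of genes with the shortest transcripts (median 868 bases) to 0.257 in the tenth with the longest (7576 bases), and from -0.202 to 0.214 in the D-named libraries. Spearman's rho over 13021 genes, which are not independent replicates and share these libraries, was 0.331. With the trend of each library with length and GC content removed, DESeq2 called 397 genes higher and 445 lower, and 684 of the 1731 calls remained with the same sign. Cholesterol genes then had 15 of 24 called higher, interferon GTPases 5 of 17 and crypt base genes 6 of 21 called lower. Nuclear oxidative phosphorylation genes, at a median length of 1110 bases, had 0 called and a median of 0.131 instead of -0.0636.

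**Figure D5:**
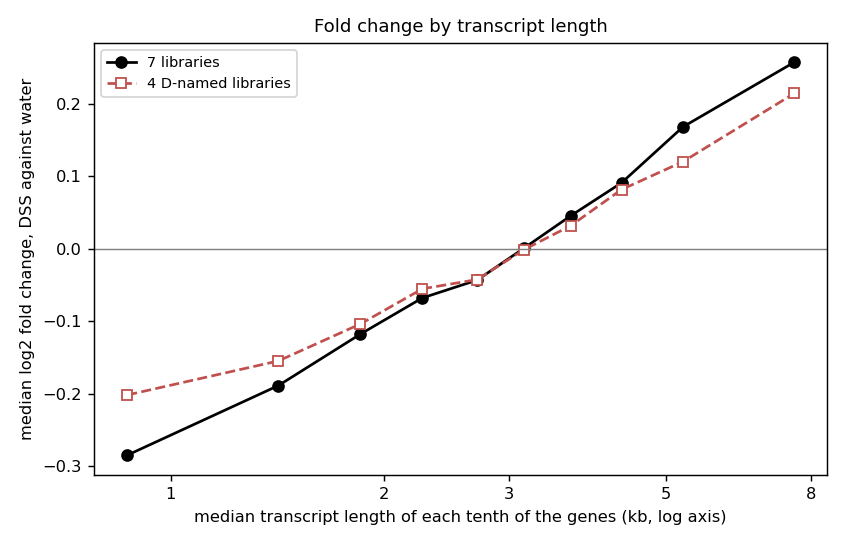
Median log2 fold change of DSS against water in 10 equal groups of genes ordered by transcript length (kb, log axis), for the 7 libraries (black) and the 4 D-named libraries (open squares). Both lines run from below 0 at 868 bases to above 0 at 7576 bases.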

How the data were processed

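Colon epithelium RNA was sequenced by the authors as paired 150-bp reads after poly(A) selection, aligned to mm9 with HISAT2 and counted on genes with featureCounts. They deposited raw counts per gene, not normalized, and tested pairwise with DESeq2. Libraries were grouped by their labels. Genes that reached 10 counts in 3 or more of the 7 libraries were tested with edgeR 4.0.16 (TMM, quasi-likelihood, Benjamini-Hochberg threshold 0.05) in R 4.3.3, and with DESeq2 1.42.0 as an alternative. Standard errors of log2 fold changes come from the edgeR fit. They are the size of the log2 fold change divided by the square root of its F statistic. Annotation is GENCODE M1 for 37310 of 37680 genes, and promoters are RefSeq GRCm38.p6. Named genes are the 12 per direction with no overlap between the groups, a mean of at least 50 normalized counts and a log2 fold change of the same sign, 0.5 or more in size, in the D-named libraries, in order of unadjusted p since none was called, up to 4 per list by unadjusted p with a mean of at least 20, and genes the study stains. Reg3b, Reg3g, Idi1, Cyp51, Insig1, Srebf2, Ddit3, Hspa5, Cd44, Axin2, Gbp2, Gbp5, Gbp7, Tgtp1, Tlr4, Duox2, Rps2, Ttr, Ido1, Cxcl10 and H2-Aa, and Zbp1, Ifit1 and others beyond the rule, were named after their values were seen. Some genes the rule selects are not reported here. Members, lists and named genes were chosen with earlier results of these data known. Same-numbered libraries of the 2 groups had correlations of their deviations from -0.0572 to 0.0524, so numbers do not pair them. The scripts were tested on simulated data.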

Additional observations from a re-analysis of the deposited data

Results flagged for a closer look

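Among the 198 genes looked at, the water group held 13 in which 1 of the 4 libraries lay further from the rest than Dixon's 95% critical value (0.829) allows. Chance gives about 1 in 20 such groups. In normalized counts, the single library was high for Sulf2 in water replicate 3 (979, against 705 to 748 in the other 3), Socs1 in water replicate 1 (305, against 191 to 194 in the other 3), Ephb3 in water replicate 3 (1885, against 1299 to 1393 in the other 3), Dnajc3 in water replicate 1 (2843, against 2041 to 2164 in the other 3), Hspa1a in water replicate 1 (379, against 16.2 to 66.6 in the other 3), Gstm3 in water replicate 4 (1852, against 1239 to 1285 in the other 3), Cd68 in water replicate 3 (107, against 42.5 to 49.0 in the other 3), Hba-a1 in water replicate 4 (91.6, against 14.5 to 27.1 in the other 3), Xist in water replicate 3 (16617, against 11076 to 11955 in the other 3), Srebf2 in water replicate 2 (6029, against 4814 to 5018 in the other 3) and Gbp5 in water replicate 3 (92.1, against 44.7 to 52.7 in the other 3). It was low for Ceacam1 in water replicate 4 (19156, against 35665 to 38704 in the other 3) and Bhlhe40 in water replicate 4 (1063, against 2054 to 2147 in the other 3). For Sulf2, Socs1, Dnajc3, Srebf2, Gbp5 and Xist the library that stands apart is the water library nearest to the DSS mean, and for Ephb3, Gstm3, Cd68, Ceacam1, Bhlhe40, Hspa1a and Hba-a1 it is the one farthest from it. The groups of 3 DSS libraries were not looked at in this way.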

How the results depend on the processing

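The edgeR count of 0 higher and 0 lower held with all 14 libraries, without the Smad4KO water library whose Smad4 is high, with a name prefix block, with other normalizations, without mitochondrial genes, with a filter of 50 counts, with a robust prior, with the length and GC trend removed and with the mitochondrial share as a covariate. It became 1 higher and 2 lower within the D-named libraries, 14 and 13 with a replicate block, 224 and 233 without a filter on low counts, and 1 higher without water replicates 3 and 4. DESeq2 called 788 and 943. Leaving out each replicate gave 0 to 221 higher and 0 to 234 lower, the highest without water replicate 2, and 20 and 5 without water replicate 4. For DESeq2, the counts were 262 and 136 within the D-named libraries, 310 and 263 with a replicate block, 397 and 445 with the length and GC trend removed, 621 lower with a name prefix block and 396 lower without water replicates 3 and 4. Leaving out each replicate gave DESeq2 108 to 1142 higher and 123 to 1398 lower. The counts higher were 108 and 114 without DSS replicates 3 and 1, and 379 without DSS replicate 2, with 147, 123 and 525 lower. Without water replicates 3 and 4 in turn, 546 and 587 were lower. The causes of these shifts were not tested.

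Of 4340 log2 fold changes of the named genes under other settings, 27 had the opposite sign. Their log2 fold changes were as follows. Within the D-named libraries for Per1 -0.085, Vim -0.35, Des 0.59, Vwf 0.083, Krt15 0.085, Pdgfa 0.082 and H2-Aa -0.012. With a replicate block for Des 0.29. Without water replicates 3 and 4 for Vim -0.13, Des 0.44, Vwf 0.085 and Krt15 0.12. With the length and GC trend removed for Bax 0.099, Ly6g 0.13, Cdkn1a 0.035 and Mki67 -0.29. With the mitochondrial share as a covariate for Vim -0.17, Des 0.57, Vwf 0.17 and Krt15 0.17. With each replicate left out, log2 fold changes ran from -0.086 to 0.45 for Mki67, from -0.21 to 0.036 for Cdkn1a, from -0.15 to 0.18 for Vim, from -0.43 to 0.29 for Des and from -0.46 to 0.0077 for Ly6g. Replicate numbers do not pair the libraries, so the replicate block is an alternative only, and the DESeq2 alternatives beyond the 7-library fit, the length and GC trend, the mitochondrial share and the fits without water replicates 3 and 4 were chosen after seeing the data. With 3 and 4 libraries of 12882827 to 26087231 counts, genes near 10 counts carry wide errors.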

Other observations

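Other lists held few calls, where DESeq2 called 5.47% of all genes tested higher and 6.55% lower. Of 20 tested NF-kB feedback and target genes, Icam1, an adhesion molecule for leukocytes, was called higher and Traf1 lower by DESeq2. Of 27 fatty acid oxidation genes 1 was called higher, Cpt1a, which moves fatty acids into mitochondria, and of 15 clock genes 1 was called higher, Clock itself. Of 21 immediate early genes, Ier2 was called lower. Among 19 genes of colon position, Hoxb6 and Hoxb9 were called lower. Hoxb6 had 1769.6, 909, 824 and 1419 on water and 733, 488 and 361 after DSS (log2 fold change -1.22, DESeq2 adjusted p = 0.004).

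Some of the genes that did not overlap and moved by 1 or more on the log2 scale in both the 7 and the 4 D-named libraries are in no list and were chosen after their values were seen. The acute phase glycoprotein gene Lrg1 had 1056, 2908, 1360.2 and 3186 on water and 4766, 8331 and 3737 after DSS (log2 fold change 1.40, 1.73 in the D-named libraries). The tachykinin precursor gene Tac1 had 1171, 1939.7, 1336 and 1754 on water and 2347, 5455 and 2803 after DSS (log2 fold change 1.19, 1.33 in the D-named libraries). The butyrophilin-like gene Btnl5 had 1612, 579, 1065 and 247 on water and 2035, 2474 and 3122 after DSS (log2 fold change 1.53, 1.04 in the D-named libraries). The annexin gene Anxa8 had 578, 699.8, 651 and 249 on water and 1439, 1375 and 1053 after DSS (log2 fold change 1.23, 1.14 in the D-named libraries). The copper transporter gene Atp7a had 111, 116, 304 and 36.2 on water and 378, 309 and 501 after DSS (log2 fold change 1.48, 1.60 in the D-named libraries). Lower in the same way, the retinol-binding protein gene Rbp2 had 219, 178, 275 and 209 on water and 49.1, 119 and 66.7 after DSS (log2 fold change -1.49, -1.23 in the D-named libraries), and the water channel gene Aqp1 had 2549, 1036, 1601 and 1875 on water and 1013, 631 and 994 after DSS (log2 fold change -1.01, -1.12 in the D-named libraries).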
